A study of Mus musculus with 42 samples.

Results

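The conjugating enzymes of phase II metabolism were followed in mouse liver RNA as 3 gene families: the UDP-glucuronosyltransferases (Ugt), the cytosolic sulfotransferases (Sult) and the glutathione S-transferases (Gst). Members were all protein-coding rows whose gene name began with Ugt, Sult or Gst, which gave 66 genes (22 Ugt, 21 Sult and 23 Gst) of 22046 protein-coding rows and 54532 rows in all. The names alone define them. The 42 libraries were poly(A) RNA of livers from pubertal female C57BL/6NHsd mice that had been fed either the low-fat standard diet AIN93G or a high-fat diet (HFD) from weaning. For each diet RNA of 3 mice was sequenced at each of 7 Zeitgeber times (ZT) spaced by 4 h from ZT 0 to ZT 24, the light phase running from ZT 0 to ZT 12, and no transgene is named. Ketamine/xylazine was injected into all mice for euthanasia. Each library came from a separate mouse, mice were group-housed and not fasted, and every time point is a different set of animals rather than a series within an animal.

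Phase II enzymes attach a water-soluble group to lipophilic drugs, pollutants, steroids, bile acids and bilirubin, which are then exported into bile or blood. UGT enzymes sit in the endoplasmic reticulum membrane and transfer glucuronic acid from UDP-glucuronic acid, whereas SULT enzymes of the cytosol transfer a sulfonate group from the donor PAPS and most GST enzymes couple reactive electrophiles to glutathione. The hepatocyte is the main site of all 3 reactions, and several members are known as targets of the receptors CAR, PXR and AHR or of the transcription factor NRF2. In mouse liver the Sult2a enzymes and Sult3a1 are known as predominantly female transcripts.

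The libraries held 14592481 to 21368409 counts each. Judged by albumin (Alb), the defining transcript of the hepatocyte, 10 of the 42 libraries labelled as liver were not liver-like: Alb was at 11.3 to 65.7 CPM (reads of the gene scaled to a library of common size) in the 10 and at 73322 to 130466 CPM in the other 32. They comprised each AIN93G library of ZT 16 and of ZT 20, and replicates 1 and 2 of either diet at ZT 24. A list of 20 hepatocyte genes summed to 0.0804 to 0.427% of their counts against 14.5 to 19.3% in the 32 liver libraries, and a list of 10 adipocyte genes summed to 1.74 to 2.90% against 0.00539 to 0.0132%, with Adipoq (adiponectin, an adipocyte hormone) at 853 to 2019 CPM against 0 to 5.60 CPM. Alb is itself on the hepatocyte list. By median, Pck1 (41.3% of liver), Cyp2e1 (8.35%) and Trf (4.51%) kept the most of that list, and its other genes were at 0.0065 to 0.274%. In bulk RNA fewer cells of a type and less RNA per cell cannot be told apart. The 10 libraries are called Alb-low, and comparisons of diet and of time were made among liver libraries wherever the design allowed it. At ZT 12, AIN93G replicates 2 and 3 and HFD replicate 3 had 0.143 to 0.405 CPM of the clock-output gene Dbp against 70.4 to 113 CPM in the other 3, a level near that of the ZT 0 libraries, and AIN93G replicate 2 and HFD replicate 3 carried a light-phase label; results on time are therefore also given without the 3. HFD replicates 2 and 3 at ZT 16 had far fewer counts of Xist (1595 and 12) than the other liver libraries.

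The members lie largely in clusters of similar genes, and the sequences they share set how well reads can be told apart. In the mm10 coordinates of the files, 9 Ugt1a genes lie at chr1:88055388-88220002, 10 Ugt2a and Ugt2b genes at chr5:86889767-87490871, and Sult1b1, Sult1d1 and Sult1e1 next to them at chr5:87513339-87591594. The 9 Ugt1a genes use their own first exon and then a common set of exons, so that the last 737 coding bases are identical in all 9, which is 46.5% of the shortest coding sequence and 45.9% of the longest. The first 60 coding bases of 5 of them (GENCODE M21, GRCm38, 5′ to 3′) are shown because they carry what sets these genes apart; none is in capitals, and Ugt1a6a and Ugt1a6b are identical over this stretch.
Ugt1a1: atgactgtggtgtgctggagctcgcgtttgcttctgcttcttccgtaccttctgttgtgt
Ugt1a5: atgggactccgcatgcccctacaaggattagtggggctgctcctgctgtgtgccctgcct
Ugt1a6a: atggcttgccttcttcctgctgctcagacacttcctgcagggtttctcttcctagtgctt
Ugt1a6b: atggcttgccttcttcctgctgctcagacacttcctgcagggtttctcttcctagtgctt
Ugt1a9: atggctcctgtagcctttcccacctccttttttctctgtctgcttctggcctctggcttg
The last 60 coding bases, common to all 9, read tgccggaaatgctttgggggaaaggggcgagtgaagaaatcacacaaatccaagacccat, and a read from this end cannot be assigned to 1 of the 9.

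The Sult2a genes of chromosome 7 are shown because Sult2a1, Sult2a2 and Sult2a6 were the members that differed most between mice of a group, with Sult2a5 and Sult2a8 for comparison. Of the last 60 coding bases, written in the same way with differences from Sult2a1 in capitals, Sult2a2 and Sult2a5 differed from Sult2a1 at 2 bases, Sult2a6 at 8 and Sult2a8 at 17.
Sult2a1: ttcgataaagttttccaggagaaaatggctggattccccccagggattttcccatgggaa
Sult2a2: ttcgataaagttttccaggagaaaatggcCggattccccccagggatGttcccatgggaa
Sult2a5: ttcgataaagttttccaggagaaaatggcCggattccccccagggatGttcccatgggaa
Sult2a6: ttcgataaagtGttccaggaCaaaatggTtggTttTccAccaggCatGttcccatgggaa
Sult2a8: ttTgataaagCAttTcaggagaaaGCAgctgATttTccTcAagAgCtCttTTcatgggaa
Over the aligned coding sequence Sult2a1 was 97.9% identical to Sult2a2 (582 bases aligned), 94.9% to Sult2a5, 89.7% to Sult2a6 and 72.7% to Sult2a8. By the share of a member's 100-base stretches that occur in another gene, 12 members shared 50% or more, 10 shared between 10% and 50%, and 44 shared less than 10%. The first set held the 9 Ugt1a genes (50.4 to 77.4%), Ugt2a1 and Ugt2a2 (94.9 and 93.5%) and Gsta1 (80.6%). The second set held Gstp2 (46.9%), Sult2a2 (34.6%), Gsta2 (28.4%), Gstp1 (25.1%), Ugt2b5 (24.7%), Ugt2b38 (24.2%), Sult2a5 (16.6%), Gstm3 (13.8%), Sult2a1 (11.4%) and Gstt3 (10.8%). Counts of these genes are also uncertain, but the size of the effect on counts was not tested. Gstm5 overlaps the gene 4933431E20Rik over 13.9% of its exon bases, Gstt3 overlaps Gm20441 over 13.6%, and Gstz1 overlaps Gm6566 and Pomt2 over 12.2%. Counting was not stated to use the strand.

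Members together made up 0.670 to 1.00% of the counts of a liver library (median 0.812%, n = 32). Averaged over the 24 liver libraries of ZT 0 to ZT 12, 18 members were above 100 CPM, 18 lay between 10 and 100 CPM, 8 between 1 and 10 CPM and 22 below 1 CPM. The sums over members, not corrected for length, were 3792 CPM for Gst, 3495 CPM for Ugt and 1574 CPM for Sult, and Sult was the most concentrated family, since 4 of its 21 genes (Sult2a8, Sult1a1, Sult1d1 and Sult3a1) held 95.3% of its sum. The 4 most abundant genes held 78.0% of the Gst sum (Gsta3, Gstz1, Gstm1 and Gstt1) and 65.7% of the Ugt sum (Ugt2b5, Ugt2b34, Ugt2b36 and Ugt2b1). Of the 22 members below 1 CPM, 11 were Sult, 7 Ugt and 4 Gst genes.

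Levels of different genes were compared per kilobase of gene length, as CPM per kb (mean ± SD over 24 liver libraries). Gstm1, a mu-class enzyme active towards epoxides, had the highest level at 374 ± 72.2 CPM per kb. Ugt2b5, of the UGT2B group that glucuronidates steroids, followed at 356 ± 56.1 CPM per kb, and Gsta3, an alpha-class enzyme that detoxifies aflatoxin epoxide in mice, at 307 ± 70.1 CPM per kb. Sult1a1, the phenol sulfotransferase, had 295 ± 61.8 CPM per kb. These 4 levels lay within a range of the same order as their SDs. Next in order were Ugt2b36 at 259 ± 39.1, Sult2a8 at 247 ± 73.0, Gstp1 (pi class) at 239 ± 49.0, Ugt2b1 at 194 ± 42.4, Gstt1 (theta class) at 191 ± 35.2 and Ugt2a3 at 170 ± 22.7 CPM per kb, with each neighbour in this order within the larger SD of the pair. Sult1d1, which sulfonates catecholamines, was at 83.9 ± 28.4 CPM per kb, and Sult3a1, a sulfotransferase of amines, at 33.5 ± 18.4 CPM per kb, so these were well below Sult1a1 and Sult2a8.

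**Figure D1:**
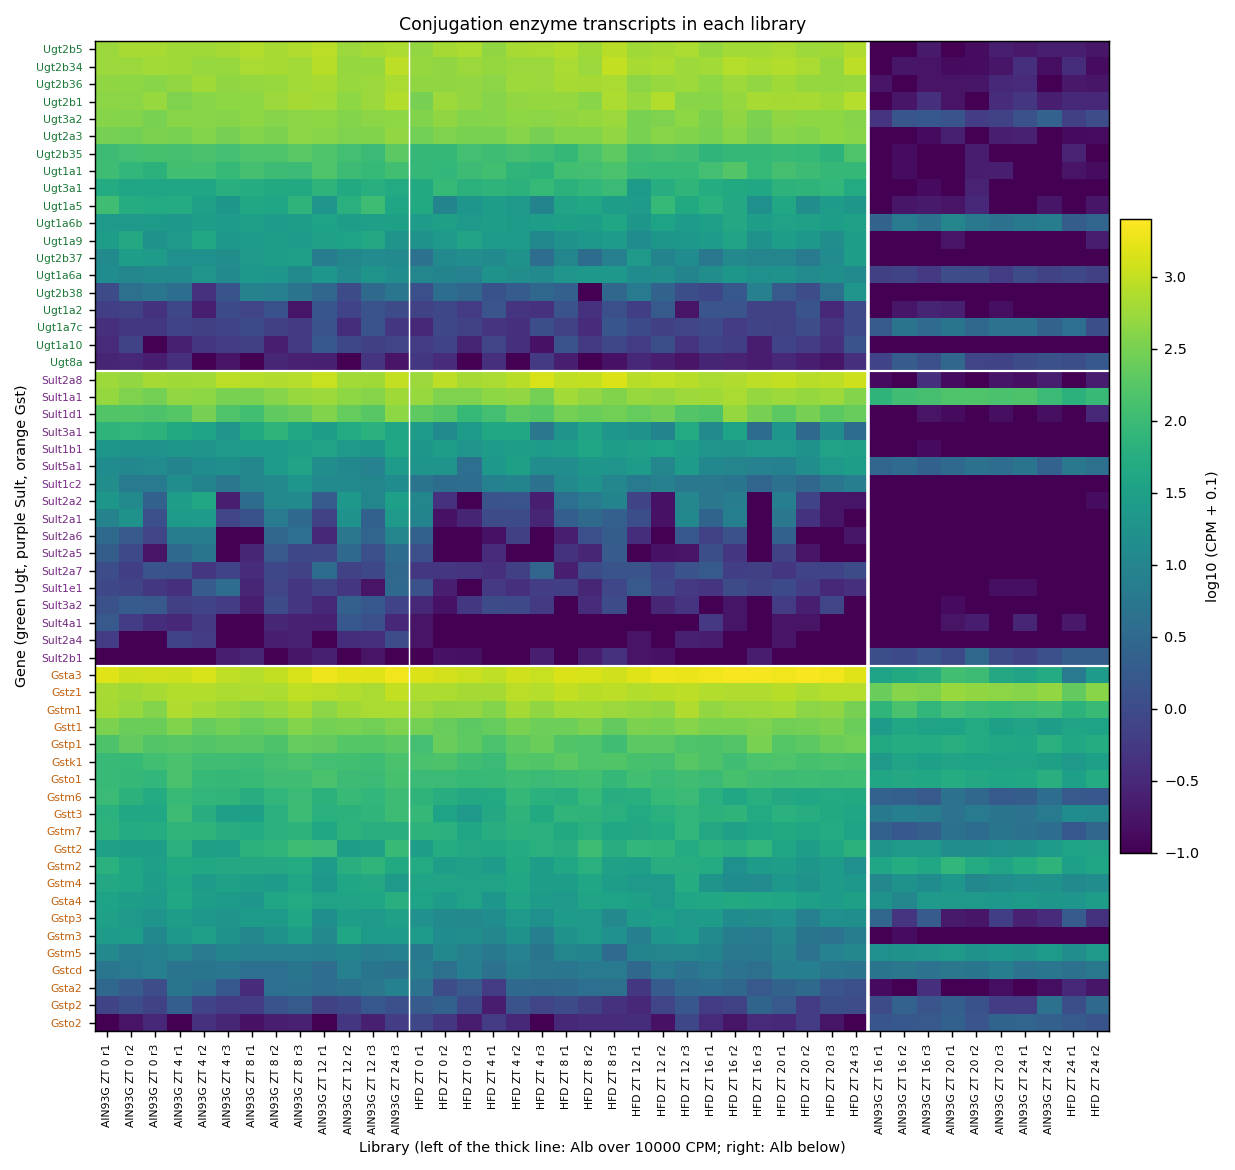
Level of 57 members in each of the 42 libraries as log10 of CPM + 0.1, in colour, with genes in rows by family and libraries in columns (AIN93G liver, HFD liver, then the 10 Alb-low libraries to the right of the thick line). In the liver columns Ugt2b5, Ugt2b34, Sult2a8, Sult1a1, Gsta3, Gstz1 and Gstm1 are among the brightest rows and the Sult2a1 to Sult2a6 rows are patchy, and in the Alb-low columns most Ugt and Sult rows are dark while most Gst rows are not.

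The first comparison asked whether the HFD changed members in liver. Over the 24 liver libraries of ZT 0 to ZT 12, 44 members reached a mean of 25 counts and were tested (19 Gst, 15 Ugt and 10 Sult), and none passed an adjusted p of 0.05 for diet averaged over the 4 times (edgeR quasi-likelihood test with Benjamini-Hochberg adjustment over 12009 genes), against 0.183% of all genes tested. At an unadjusted p under 0.05 there were 13 of 44 members (29.5%) against 8.06% of all genes. The median log2 difference of HFD minus AIN93G was -0.04 over the 44 members and -0.0018 over all genes, and by family it was -0.02 for Ugt, -0.31 for Sult and -0.05 for Gst, with 18 members positive and 26 negative. DESeq2 called 1 member, Gstk1, and 0.783% of all genes.

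Gstk1, the kappa-class transferase of mitochondria and peroxisomes, had the smallest p. It ranged from 89.5 to 144 CPM on AIN93G (median 114, n = 12) and from 101 to 195 CPM on the HFD (median 151, n = 12). The HFD libraries were shifted upwards and had the higher mean at 4 of 4 times, but the groups overlapped, and the log2 difference of 0.37 (SE 0.094) had an adjusted p of 0.135 in edgeR. Ugt3a1, of a UGT family known to use sugars other than glucuronic acid, lay at 37.8 to 71.7 CPM on AIN93G (median 46.7) and at 24.6 to 101 CPM on the HFD (median 70.3), a log2 difference of 0.50 (SE 0.14, adjusted p = 0.231). The lowest value of both groups was an HFD library, replicate 1 of ZT 12, while most HFD libraries exceeded the AIN93G median. Sult3a1 went the other way, with 19.8 to 79.5 CPM on AIN93G (median 47.8) and 5.52 to 48.3 CPM on the HFD (median 22.9), a log2 difference of -0.98 (SE 0.29, adjusted p = 0.231). Its mean was lower on the HFD at each of the 4 times, and the groups overlapped.

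The other 10 members with an unadjusted p under 0.05 are named because of that p, after their values were seen. Sult2a8 (log2 difference 0.38) and Sult1b1 (0.29), a sulfotransferase of thyroid hormones, had higher means on the HFD at 4 of 4 times. Sult1c2 (-0.60), Ugt1a9 (-0.47), Ugt1a5 (-0.74), Sult2a1 (-1.88), Sult2a2 (-2.15) and Sult2a6 (-2.28) had higher means at 0 of 4 times. Gstp3 (-0.39) and Ugt2b37 (-0.71) had higher means on the HFD at 1 of 4 times. Their adjusted p ran from 0.283 (Sult1c2) to 0.508 (Ugt1a5), and the AIN93G and HFD libraries overlapped for each of the 13.

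**Figure D2:**
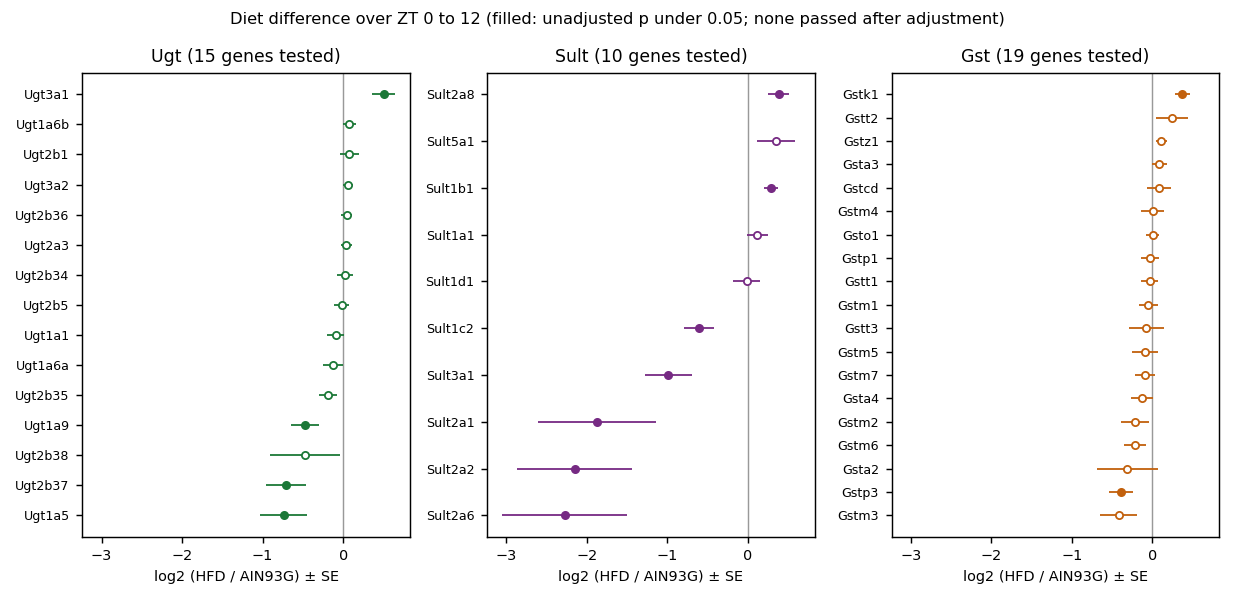
Log2 ratio of HFD to AIN93G averaged over ZT 0 to ZT 12 for the 44 members tested, by family, with bars of 1 SE and filled points for an unadjusted p under 0.05. No member passed the adjusted threshold, and Sult2a1, Sult2a2 and Sult2a6 carry the lowest values (-1.88 to -2.28) and the widest bars.

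Diet was then compared at each time, with 3 libraries per diet. No member passed an adjusted p of 0.05 at ZT 0, ZT 4, ZT 8 or ZT 12, where 0%, 0%, 0.00833% and 0% of all genes did. At an unadjusted p under 0.05 the counts were 7 of 44 members at ZT 0 (all genes 4.01%), 4 at ZT 4 (2.43%), 5 at ZT 8 (11.6%) and 2 at ZT 12 (7.21%). At ZT 0 Sult3a1 was at 71.3, 79.5 and 68.5 CPM on AIN93G and at 26.0, 12.3 and 25.1 CPM on the HFD, groups that did not overlap, with a log2 difference of -1.78 (SE 0.58, adjusted p = 0.911). Sult1c2 (-1.18) and Gstp3 (-0.88) had the other smallest p-values at ZT 0, with adjusted p of 0.904 and 0.949.

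At ZT 8 Ugt2b37 was at 22.6, 28.8 and 30.3 CPM on AIN93G and at 10.3, 3.47 and 8.10 CPM on the HFD. The groups were apart, and the log2 difference of -1.88 (SE 0.51) had an adjusted p of 0.243 in edgeR, while DESeq2 called it. Ugt2b38, the other member lower on the HFD at ZT 8 at an unadjusted p under 0.05, was at 9.23, 8.02 and 4.85 CPM against 2.13, 0 and 2.76 CPM (log2 difference -2.15), and Ugt3a1 was 0.79 higher on the log2 scale. At ZT 12 Ugt1a9, a UGT of bulky phenols, was at 33.3, 35.1 and 45.6 CPM on AIN93G and at 13.6, 20.9 and 22.1 CPM on the HFD (log2 difference -1.02, SE 0.35, adjusted p = 0.662). Sult1c2 (-0.82) and Gstk1 (0.35) had the next smallest p-values at ZT 12. The ZT 12 libraries low in Dbp were replicates 2 and 3 of AIN93G and replicate 3 of the HFD. Diet and that state therefore cannot be fully told apart at ZT 12. At ZT 4 the 3 smallest belonged to Sult2a2, Sult2a1 and Sult2a6.

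Whether the diet difference changed over the 4 times was tested by the interaction of diet and time. No member passed, as did 0% of all genes, and at an unadjusted p under 0.05 there was 1 of 44 members against 5.87% of all genes. That member was Ugt2b37 (unadjusted p = 0.0149, adjusted p = 0.787), whose HFD mean was the lower at ZT 0, 4 and 8 and the higher at ZT 12. Its ZT 12 counts were 102, 154 and 188 on AIN93G and 342, 147 and 186 on the HFD, where replicate 1 stood far above the rest. Ugt3a1 and Gstp3 followed with adjusted p of 0.865 and 0.866.

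Differences over time were tested over ZT 0 to ZT 12 in both diets together. Here 4 of 44 members passed (9.09%) against 6.29% of all genes: Gsta3, Ugt1a6a, Sult1c2 and Sult1b1. The range between the highest and the lowest time mean was, at the median, 0.35 log2 units for members and 0.30 for all genes. Without the 3 ZT 12 libraries that were low in Dbp, an alternative added after the data were seen, 9 of 43 members passed (16.5% of all genes, 1989 of 12020), namely those 4 with Gstt2, Gstz1, Sult1d1, Ugt2b34 and Ugt2b36.

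Gsta3 was at 1534, 1148 and 1203 CPM on AIN93G at ZT 0, at 1142, 1365 and 951 at ZT 4, at 806, 984 and 1353 at ZT 8 and at 1915, 1627 and 1548 CPM at ZT 12. On the HFD it was at 1458, 1273 and 1118 CPM at ZT 0, at 964, 1229 and 1082 at ZT 4, at 1432, 1383 and 1194 at ZT 8 and at 1551, 1913 and 1878 CPM at ZT 12. All 6 libraries of ZT 12 exceeded all 18 of the earlier times, and the range over the 4 time means was 0.63 on the log2 scale (adjusted p = 0.016). The call was lost without ZT 12 (adjusted p = 0.567) and held in the other 32 of 33 fits.

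Ugt1a6a, which glucuronidates simple phenols, changed by 0.88 on the log2 scale over the 4 times (adjusted p = 0.0269). Its AIN93G libraries were at 13.5, 10.2 and 11.9 CPM at ZT 0 and at 22.1, 20.3 and 12.0 CPM at ZT 8. Its HFD libraries were at 10.5, 9.60 and 8.72 CPM at ZT 0 and at 19.8, 21.9 and 22.5 CPM at ZT 8. The 2 times did not overlap on the HFD but did on AIN93G. Of its 100-base stretches 50% or more occur in the other Ugt1a genes.

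Sult1c2 changed by 1.18 on the log2 scale (adjusted p = 0.0389), with means highest at ZT 8 in the 2 diets together. Its HFD libraries were at 4.77, 3.44 and 3.75 CPM at ZT 0 and at 12.3, 17.3 and 10.7 CPM at ZT 8, without overlap. Its AIN93G libraries were at 14.6, 6.16 and 6.30 CPM at ZT 0 and at 10.1, 11.8 and 20.3 CPM at ZT 8, with overlap. Sult1b1 changed by 0.51 (adjusted p = 0.0415). It was at 17.8 to 21.5 CPM at ZT 0 and at 26.3 to 30.9 CPM at ZT 8 on AIN93G, and at 19.6 to 29.0 CPM and 27.6 to 40.8 CPM on the HFD. The calls of Sult1b1, Sult1c2 and Ugt1a6a were lost in 18, 15 and 7 of 33 alternative fits, most of which left out 1 library. Gstt2 was just outside the threshold with a range of 1.14 (adjusted p = 0.0578), and it is named after its values were seen because AIN93G at ZT 12 was split between replicate 1 at 98.6 CPM and replicates 2 and 3, low in Dbp, at 28 and 33 CPM.

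On the HFD the liver-like libraries ran from ZT 0 to ZT 20, so time was also tested in those 18 libraries. Of 43 members tested 3 passed (6.98%) against 2.71% of all genes, and the median range was 0.66 on the log2 scale over members and 0.52 over all genes. Gsta3 was at 2044, 2298 and 2166 CPM at ZT 16 and at 2041, 2310 and 2060 CPM at ZT 20. These 6 values exceeded every earlier HFD library, and the range of 0.99 (adjusted p = 0.00429) was called in each of 28 alternative fits. Sult1c2 was at 5.67, 5.05 and 2.67 CPM at ZT 16 and at 4.27, 2.76 and 5.34 CPM at ZT 20, with a range of 1.74 (adjusted p = 0.0207). All 3 libraries of ZT 8 stood above those of every other time, and the call was lost in the fit without HFD replicate 2 of ZT 8. Ugt1a6a was at 14.7, 21.1 and 15.8 CPM at ZT 16 and at 17.1, 12.9 and 15.5 CPM at ZT 20, with a range of 1.15 (adjusted p = 0.0308) that set ZT 8 against ZT 0. Its call was lost in 8 of 28 fits, among them the fit without HFD replicates 2 and 3 of ZT 16.

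A curve of 24 h period fitted to the same 18 libraries called 5 of 43 members and 1023 of 12008 genes. Gsta3 peaked at ZT 16.5 with an amplitude of 0.52 on the log2 scale (adjusted p = 0.000197). Sult1c2 peaked at ZT 7.97 with an amplitude of 0.84 (adjusted p = 0.00388). Gstt2 peaked at ZT 10.7 (amplitude 0.50), Ugt2b35 at ZT 7.43 (0.38) and Gstm4 at ZT 5.04 (0.52), with adjusted p of 0.0257, 0.0265 and 0.0461. The members called thus peaked from ZT 5.04 to ZT 16.5.

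**Figure D3:**
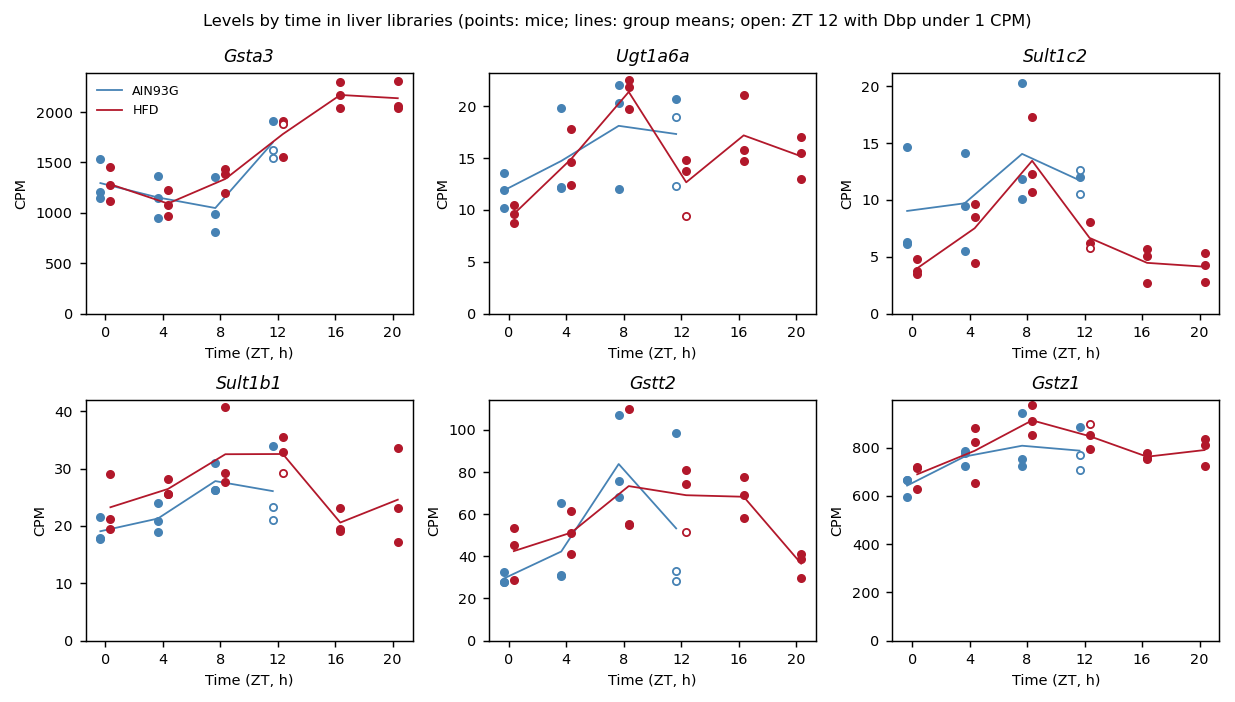
CPM of Gsta3, Ugt1a6a, Sult1c2, Sult1b1, Gstt2 and Gstz1 in each liver library against ZT in hours, with points for mice, lines through the group means and open points for the 3 ZT 12 libraries low in Dbp. Gsta3 on the HFD stands at 2041 to 2310 CPM at ZT 16 and ZT 20, above all its earlier libraries, and Sult1c2 on the HFD is highest at ZT 8.

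Genes that make the donors of these reactions, export the conjugates or answer the same receptors were read from fixed lists, by the same tests. For diet averaged over ZT 0 to ZT 12, no gene passed of 4 for UDP-glucuronate supply, 5 for PAPS supply, 8 tested for glutathione supply, 10 tested of other conjugating enzymes, 10 tested NRF2 targets, 3 tested AHR targets and 12 receptors and regulators. The exporter Abcc3, which pumps glucuronides into blood and stands on the lists of 7 exporters and of 9 tested CAR and PXR targets, rose on the HFD by 0.66 on the log2 scale (SE 0.095, adjusted p = 0.00985) and was the only gene called on either. For time over ZT 0 to ZT 12, where 6.29% of all genes passed, Ugp2, which makes UDP-glucose, passed as 1 of 4 UDP-glucuronate genes (range 0.58, adjusted p = 0.0127), and Gclc, the rate-limiting enzyme of glutathione synthesis, passed as 1 of 8 glutathione genes (range 0.79, adjusted p = 0.0431). Gclc and Osgin1 (range 1.65, adjusted p = 0.0196) were 2 of 10 NRF2 targets, Alas1, the rate-limiting enzyme of haem synthesis, was 1 of 9 CAR and PXR targets (range 2.46, adjusted p = 0.00969), and Cyp1a2, a cytochrome P450 of aromatic amines, was 1 of 3 AHR targets (range 0.95, adjusted p = 0.0205). No exporter, other conjugating enzyme or receptor and no PAPS gene passed in that test. On the HFD over ZT 0 to ZT 20, where 2.71% of all genes passed, 1 of 5 PAPS genes, the PAPS transporter Slc35b2, passed (range 0.73, adjusted p = 0.00754), as did Ugp2 (range 0.92, adjusted p = 0.0147) and Alas1 (range 2.57, adjusted p = 0.0278), with no other gene of the lists above. All 8 genes of a clock list passed over ZT 0 to ZT 12, and 5 of the 8 on the HFD over ZT 0 to ZT 20.

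Among members, 3 Sult2a genes varied most between mice of a group. The biological coefficient of variation, the spread between replicates beyond counting error, had a median of 18% over the 12009 genes, and it was 146% for Sult2a6, 121% for Sult2a2 and 116% for Sult2a1, ranks 16, 26 and 29 from the top. Ugt2b38 (73.2%) and Gsta2 (62.7%) came next among members. These genes are described here after their values were seen. Sult2a1 and Sult2a2 sulfonate steroids such as dehydroepiandrosterone, and Sult2a8 is a liver sulfotransferase of bile acids.

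At ZT 4 Sult2a2 was at 29.6, 43.8 and 0.135 CPM on AIN93G and at 1.24, 1.35 and 0.131 CPM on the HFD. Sult2a1 was at 25.3, 27.3 and 0.742 CPM and at 0.927, 0.925 and 0.197 CPM in the same libraries, and Sult2a6 at 6.93, 7.08 and 0 CPM and at 0.0618, 0.569 and 0 CPM. In each case the first pair of AIN93G libraries was high and the third was at the level of the HFD libraries. The log2 differences at ZT 4 were -4.75 (SE 1.6) for Sult2a2, -4.68 (SE 1.7) for Sult2a1 and -4.48 (SE 1.7) for Sult2a6, and each had an adjusted p of 1.00. The neighbouring Sult2a8 did not show the split, with 590, 612 and 890 CPM on AIN93G and 685, 833 and 1335 CPM on the HFD.

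Over all 32 liver libraries Sult2a1 exceeded 1 CPM in 20 (11 of 13 on AIN93G and 9 of 19 on the HFD), Sult2a2 in 22 (12 and 10), Sult2a6 in 15 (9 and 6) and Sult2a5 in 10 (7 and 3), while Sult2a8 did so in 32. Sult2a1 and Sult2a2 were above 1 CPM together in 19 libraries, and all 15 libraries with Sult2a6 above 1 CPM also had Sult2a2 above it. Among the 4 genes other than Sult2a8 the pairwise Spearman rho ran from 0.84 to 0.95 over the 32 libraries, a description of libraries that share their depth and groups and of genes that share sequence. Sult2a6 differs from Sult2a1 at 8 of the 60 bases shown and had no 100-base stretch in common with another gene. Among HFD libraries the highest Sult2a2 values were 10.7 CPM (ZT 12 replicate 3) and 10.2 CPM (ZT 0 replicate 1), and the lowest was 0.

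**Figure D4:**
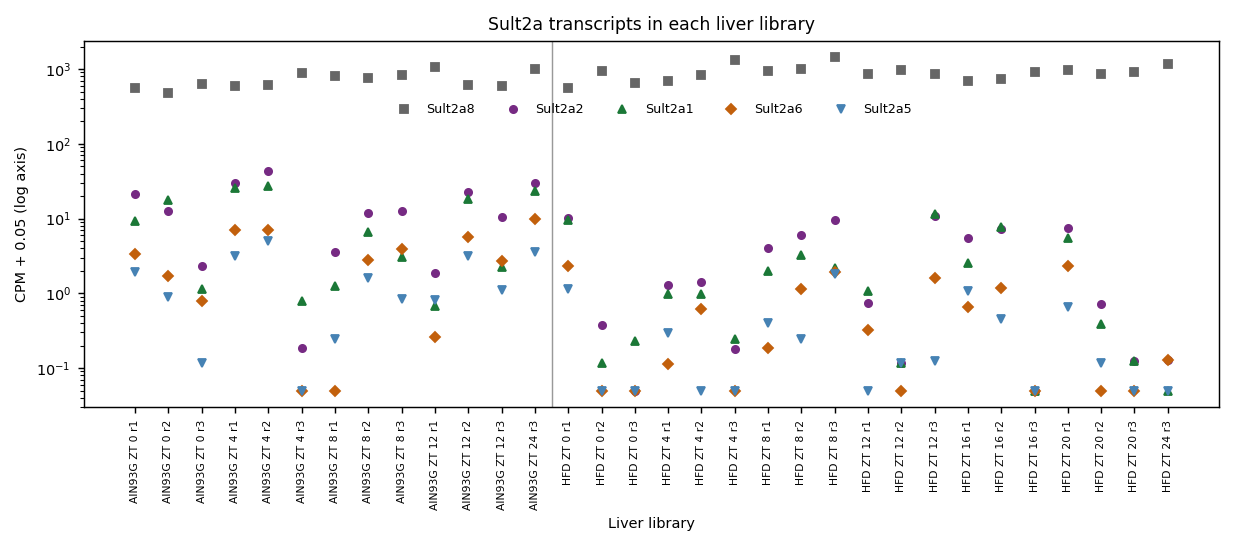
CPM + 0.05 of 5 Sult2a genes (log axis) in each of the 32 liver libraries, AIN93G left and HFD right of the vertical line. Sult2a1, Sult2a2 and Sult2a6 tend to be high or near 0 in the same libraries of both diets, while Sult2a8 stays between 485 and 1431 CPM.

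At ZT 16 and ZT 20 the study's comparison of diets set AIN93G libraries that were all Alb-low against HFD libraries that were all liver-like, so diet and tissue make-up cannot be told apart there. Of 42 members tested 38 passed at ZT 16 (60.5% of all genes passed), 36 of them higher on the HFD (28.7% of all genes) and 2 lower (31.8%). At ZT 20 again 38 passed (58.4% of all genes), 35 higher on the HFD (29.2%) and 3 lower (29.3%). All 15 Ugt genes but Ugt1a7c and all 8 Sult genes tested were higher on the HFD at both times. In the Gst family 14 of 19 were higher at ZT 16 and 13 of 19 at ZT 20. Of the Ugt and Sult genes 10 of 15 and 5 of 8 were at the floor on AIN93G at ZT 16, so they passed the filter on counts only through the HFD libraries and had to differ, and nothing is read from these counts or from the medians over members. With 25 counts or more in every library 19 members could be tested, of which 16 passed at each time, against 55.0% and 54.2% of all genes. The median log2 difference was 4.80 and 4.48 over members, or 4.72 and 4.27 with genes at the floor set to their lower bound, where 1 member without a bound was left out, against -0.04 and -0.02 over all genes.

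In the AIN93G libraries 16 of the 42 members had at most 3 counts in each of the 3 mice at ZT 16, and 13 of 42 at ZT 20. Folds of such genes are lower bounds, taken against the CPM that 3 counts give in a library. Ugt2b34 had 718 ± 94.9 CPM (SD, n = 3) on the HFD at ZT 16 and was at least 5864-fold higher there than on AIN93G. Ugt2b5, at 0, 0 and 0.111 CPM on AIN93G and 513, 618 and 626 CPM on the HFD, was at least 4783-fold higher. The bounds were 4159-fold for Ugt2b36, 2868-fold for Ugt2a3, 2618-fold for Sult1d1 and 1023-fold for Ugt1a1, the UGT of bilirubin.

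Sult1a1 and several Gst genes differed far less. Gstz1, which isomerises maleylacetoacetate in tyrosine breakdown, was at 252, 399 and 352 CPM on AIN93G and at 778, 751 and 758 CPM on the HFD at ZT 16, a log2 difference of 1.19 (SE 0.18, adjusted p = 0.000107). At ZT 20 its difference was 0.81 (SE 0.17, adjusted p = 0.00179), and scaling by library size alone removed both calls. Sult1a1 differed by 2.53 and 1.98 on the log2 scale, Gstm1 by 2.46 and 2.35, Gstp1 by 2.08 and 2.12 and Gsto1 (omega class) by 1.41 and 1.28. Gsta3 differed by 5.56 and 4.68.

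Gstm5, a mu-class gene known from testis and brain, was lower on the HFD, with 15.8, 17.9 and 19.2 CPM on AIN93G and 9.52, 5.70 and 5.92 CPM on the HFD at ZT 16 (log2 difference -1.32, SE 0.28, adjusted p = 0.00143). At ZT 20 the difference was -1.38 (SE 0.28, adjusted p = 0.00109). Ugt1a7c was lower by 2.24 and 2.57 on the log2 scale (adjusted p = 0.00168 and 0.000701). Its HFD libraries held 14, 6 and 12 counts at ZT 16 and 9, 15 and 5 at ZT 20, so it passed the filter on counts only through the Alb-low AIN93G libraries, where it is high, and had to differ, and nothing is read from these p-values. Without HFD replicates 2 and 3 of ZT 16 the calls at ZT 16 were lost for both, at log2 differences of -0.87 (SE 0.37, adjusted p = 0.0902) and -1.89 (SE 0.74, adjusted p = 0.0661), in a fit that leaves 1 HFD library at ZT 16 and assumes that it varies like the other groups. Gstm2 was called at ZT 20 (log2 difference -1.07, SE 0.36, adjusted p = 0.0239) and not at ZT 16 (-0.53, adjusted p = 0.222), and the ZT 20 call was lost without AIN93G replicate 1, HFD replicate 2 or HFD replicate 3 of that time (highest adjusted p = 0.0970). Gstm4, Gstcd (a protein with a GST-like domain) and Gstp2 passed at neither time, and Gsta4 passed at ZT 16 (1.35) and not at ZT 20 (0.55). Scaling by library size moved the median of all genes to -0.91 at ZT 16 and -0.72 at ZT 20 and the genes higher on the HFD from 4004 of 8435 called to 1934 of 10994 and from 4067 of 8148 to 2127 of 9942, while 34 of 39 and 34 of 37 members called were higher on that scale.

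Which members remained in the libraries that were rich in adipocyte transcripts was described over all 10 Alb-low and 32 liver libraries, with no test, because measured Alb separated them. Members made up 0.114 to 0.173% of Alb-low counts (median 0.148%) against 0.670 to 1.00% in liver. The Ugt share was 0.00099 to 0.00271% against 0.269 to 0.434%, the Sult share 0.0130 to 0.0230% against 0.106 to 0.194%, and the Gst share 0.0997 to 0.149% against 0.254 to 0.434%. Among the 48 members with a median of 1 CPM or more in either set, every Alb-low library was below every liver library for 32 (15.9% of all 14754 such genes) and above for 4, namely Gstm5, Gsto2, Sult2b1 and Ugt8a (17.2% of such genes). A gene that reached 1 CPM only through the set where it is high had to differ, so nothing is read from these counts.

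Some transcripts of other cell types also differed between the 2 sets. Krt19, a keratin of bile duct and other epithelia, had a median of 120 CPM in Alb-low libraries against 1.29 in liver, whereas the cholangiocyte gene Cftr was at 0 against 0.174 CPM. The cholangiocyte list of 6 genes summed to 0.00736 to 0.0673% of Alb-low counts against 0.00302 to 0.00617% in liver. A mammary list of 8 genes summed to 0.00547 to 0.0846% against 0.0189 to 0.0360%, with median Krt14 at 8.74 and Krt5 at 8.69 against 0 CPM. On this list Krt8 (103 against 181 CPM) and Krt18 (97.5 against 128 CPM) had lower medians than in liver. Of its milk genes Csn3 was at a median of 9.23 against 0 CPM, with over 3 counts in all 10 Alb-low libraries, and Wap and Csn2 were at medians of 0 in both sets. Elf5, a regulator of milk genes, was at 8.21 against 0.300 CPM. A lymph node list summed to 9.22e-05 to 0.119% against 0.000119 to 0.000471%. A Kupffer cell and macrophage list summed to 0.00956 to 0.0351% against 0.0203 to 0.0559%, and of its 6 genes the Kupffer cell genes Clec4f (0.0169 against 212 CPM) and Vsig4 (0.714 against 37.8 CPM) had far lower medians. The other 4 had medians near or above those of liver, with Adgre1 at 20.8 against 25.04, Timd4 at 10.1 against 10.2, Csf1r at 77.3 against 63.6 and Cd68 at 14.3 against 9.71 CPM. The part of these cells, and of adipocytes, in the members' values was not tested.

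Accounting for all 66 members, 20 had over 3 counts in some liver library and at most 3 in each Alb-low library (12 Sult, 6 Ugt and 2 Gst), and 10 of these 20 had a liver median under 1 CPM. By median CPM 11 others were under 1% of the liver median (9 Ugt and 2 Sult). Another 6 were at 1 to 10%, of which 5 were Gst, although the Alb-low median of Gsta2 was 1 count, below the floor, so that it can only be put at no more than 4.87%. A further 11 were at 10 to 50% and 3 at 50 to 100%. Medians were above those of liver for 7 members, and the remaining 8 were at the floor in both sets (4) or had medians under 1 CPM in both (4). In all 21 members were at 10% or more of the liver median, and 15 of these were Gst genes (8, 3 and 4 in the last 3 classes).

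By CPM, with no correction for length, the 6 largest Alb-low medians were 408 CPM for Gstz1 (52.4% of the liver median of 779 CPM), 118 CPM for Sult1a1 (23.9%), 96.3 CPM for Gstm1 (18%), 50.4 CPM for Gstp1 (27.8%), 46.8 CPM for Gstm2 (111%) and 45.3 CPM for Gsta3 (3.13%). With library-size scaling the Alb-low median of Gstz1 was 87.4% of that in liver. Gsta3 ranged from 6.64 to 117 CPM over the 10 Alb-low libraries, a wider relative range than that of Gstz1 (217 to 528 CPM).

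Of the 7 members above their liver level, all but Gstm2 (42.1 CPM) and Gstm5 had liver medians under 1 CPM. Gstm5 was at 14.6 to 25.3 CPM in Alb-low libraries against 3.34 to 11.7 CPM in liver, 221% of the liver median and without overlap. Ugt1a7c was at 1.05 to 4.96 CPM (median 3.63) against 0.205 to 1.41 CPM (median 0.608). Gsto2 had a median of 1.66 CPM against 0.203, Ugt8a, which makes the galactosylceramide of myelin, 1.06 against 0.139, and Gstp2 1.25 against 0.829 CPM. Sult2b1, the sulfotransferase of cholesterol known from skin, was at 0.697 to 2.84 CPM against 0 to 0.321 CPM, with a liver median of 0.

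At the other end 9 of the 11 members under 1% of the liver median had Alb-low medians below the floor, so their ratios are given as bounds against 3 counts and cannot be ranked below them. Sult2a8 had a median of 842 CPM in liver and of 1 count in Alb-low libraries (0 to 8 counts), at least 5637-fold lower. The bounds were 4361-fold for Ugt2b5 (652 CPM in liver), 3979-fold for Ugt2b34 (595 CPM), 3469-fold for Ugt2b36 (518 CPM), 2497-fold for Ugt2a3 (373 CPM) and 1341-fold for Sult1d1 (200.4 CPM). Ugt2b35 and Ugt3a1, at 119 and 54.1 CPM in liver, had medians of 0 counts and highest values of 5 and 4 counts in Alb-low libraries, at least 799-fold and 362-fold lower. For members at the floor in every Alb-low library the bound against 3 counts was at least 687-fold lower for Ugt1a1, 211-fold for Sult3a1, 171-fold for Sult1b1, 169-fold for Ugt1a9 and 114-fold for Gstm3. Ugt3a2 was higher than the other Ugt genes of similar abundance, at 1.08 CPM against 426 CPM in liver (0.253%). The cofactor lists differed among themselves. Genes of UDP-glucuronate supply summed to 0.0449 to 0.0701% of counts in Alb-low and 0.0473 to 0.0875% in liver libraries, and those of PAPS supply to 0.0224 to 0.0290% against 0.0323 to 0.0664%. Genes of glutathione supply were further apart, at 0.0191 to 0.0365% against 0.0876 to 0.233%, without overlap.

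**Figure D5:**
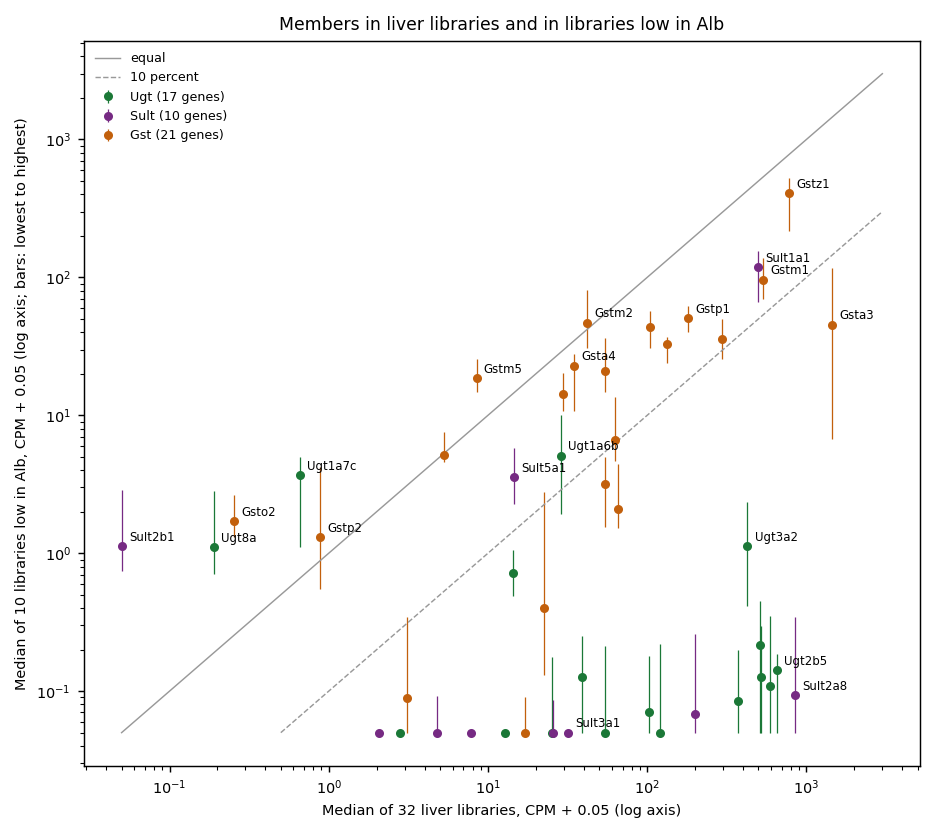
Median CPM + 0.05 of 48 members in the 10 Alb-low libraries (bars from the lowest to the highest library) against the 32 liver libraries, both on log axes, by family, with lines at equal level and at 10%. Most Gst genes lie between or near the lines, with Gstz1 at 408 against 779 CPM and Gstm5 above the line of equal level, while Sult2a8 lies at the lower right with 842 CPM in liver and an Alb-low median of 1 count, below the floor of 3 counts.

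Promoter sequence was then set beside this division, as a description. RefSeq promoters (GRCm38.p6, 250 bases before to 50 after a start) were found for 58 of 66 members, 70 promoters in all. The site GTTAAT followed by any base and ATT, searched on both strands as the core of the site bound by HNF1, a transcription factor of hepatocytes, kidney and gut, was in 0.4% of all 32851 promoters. It was in 8 of 29 promoters (27.6%) of 27 members under 1% or at the floor in Alb-low libraries and in 0 of 25 promoters of 18 members at 10% or more. The 8 belonged to Sult1d1, Sult2a3, Sult2a4, Sult2a5, Sult2a6, Ugt1a1, Ugt1a9 and Ugt1a10, of which the Sult2a and the Ugt1a genes are related by sequence and so are not independent. Of these, Sult2a3, Sult2a4, Sult2a5, Sult2a6 and Ugt1a10 had liver medians of 0 to 0.678 CPM, so they were under 1 CPM in both sets. Among the 18 of the 27 members with 1 CPM or more in liver, 3 of 20 promoters (15%) held the site, and those of Ugt2b5, Ugt2b34, Ugt2b36, Ugt2b1, Ugt2a3 and Sult2a8, all abundant in liver, did not. The median number of CG pairs per promoter was 7 over all promoters, 1 over the first set and 14 over the second. The 120 bases before the start of 4 members with the site are shown 5′ to 3′ on the gene's strand, with the matching letters in capitals; on Ugt1a1 and Ugt1a9 the match reads as its reverse complement.
Ugt1a1 chr1:88211839-88211958 strand +: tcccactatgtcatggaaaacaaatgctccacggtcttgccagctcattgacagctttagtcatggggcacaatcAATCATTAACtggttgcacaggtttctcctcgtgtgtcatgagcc
Ugt1a9 chr1:88070659-88070778 strand +: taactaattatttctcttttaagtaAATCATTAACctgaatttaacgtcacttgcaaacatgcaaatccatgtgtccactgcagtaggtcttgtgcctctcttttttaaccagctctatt
Sult1d1 chr5:87569007-87569126 strand -: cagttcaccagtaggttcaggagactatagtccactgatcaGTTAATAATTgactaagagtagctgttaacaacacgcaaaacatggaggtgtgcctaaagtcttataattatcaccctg
Sult2a6 chr7:14254871-14254990 strand -: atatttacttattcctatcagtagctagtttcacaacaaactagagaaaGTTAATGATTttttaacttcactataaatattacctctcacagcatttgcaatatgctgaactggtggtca
The same stretch is shown for Gstm5 and Ugt8a, which were higher in Alb-low libraries, with CG pairs in capitals, 9 and 16 in number.
Gstm5 chr3:107895734-107895853 strand +: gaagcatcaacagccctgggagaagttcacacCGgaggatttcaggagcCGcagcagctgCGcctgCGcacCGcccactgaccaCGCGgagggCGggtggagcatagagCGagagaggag
Ugt8a chr3:125938653-125938772 strand -: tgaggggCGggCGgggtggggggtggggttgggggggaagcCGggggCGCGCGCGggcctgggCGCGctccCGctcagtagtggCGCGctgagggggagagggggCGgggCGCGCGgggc
Of 5 other letter strings searched in the same windows on both strands, the antioxidant response core TGACNNNGC was in 4.29% of member promoters and 12.4% of all, the E-box CACGTG in 0% and 7.15%, the D-box TTANGTAA in 4.29% and 2.32%, the AHR core GCGTG in 21.4% and 32.4% and TATAAA in 21.4% and 13.6%. A match is only a run of letters, and its absence says nothing about binding outside these windows.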

How the data were processed

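Liver RNA of 42 mice was sequenced as paired-end poly(A) libraries. The authors deposited raw read counts per gene, which per the submitters' processing notes came from fastp, STAR and HTSeq 0.6.1 on mm10, with DESeq and STAR-Fusion also named. The annotation release, the read length and the strand setting of counting are not given in the sources used here. The members, the gene lists and the tests were chosen with earlier results of these data known.

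Counts were tested with edgeR 4.0.16 (limma 3.58.1, R 4.3.3), by TMM scaling and the quasi-likelihood F-test on genes averaging 25 counts or more in the fitted libraries, and with Benjamini-Hochberg adjustment over all genes tested (threshold 0.05). The fits took 24 liver libraries (ZT 0 to 12), 18 HFD libraries (ZT 0 to 20) and 12 libraries (ZT 16 and 20), for 10 comparisons in all. CPM values shown use TMM factors over 42 libraries, and the floor is 3 counts, or 0.174 to 0.241 CPM in liver and 0.102 to 0.149 CPM in Alb-low libraries (under 10000 CPM of Alb). Alb-low libraries had TMM factors of 1.23 to 1.75 and liver libraries of 0.811 to 0.970. Floors cover counting error only, while the SEs of the fits also include the spread between mice. Samples were grouped by the diet and time labels, and replicate numbers were given in accession order. Sample titles share a leading number between libraries of different times within a diet (8 numbers on 18 libraries); what it marks is not given in the sources used here. The 42 pairs of replicates differed by more than counting error (lowest chi-square per degree of freedom 14.5), and every library was used. P-values set group differences against the spread between mice, with libraries treated as independent except in the fits with a block.

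Genes were named by a rule: per family the 4 highest levels per kb, per test the members past the threshold or the 3 with the smallest p, and in Alb-low libraries the 6 highest medians and the 6 highest and 4 lowest ratios to liver. The lowest ratios rest on Alb-low medians under 3 counts and are given as bounds, for the 4 lowest above 0, for Ugt2b5 and Ugt2b36, for 2 with a median of 0 and for members at the floor with the largest bounds, and other members named were chosen after their values were seen. The alternatives were DESeq2 1.42.0, library-size scaling, limma-voom with and without a block, other filters on counts, libraries or times left out, and a curve of 24 h period. The fits were tested on simulated data with 200 changed genes at a dispersion of 0.04. Of these, 2-fold changes were recovered for 200 in the diet average, 199 for time over ZT 0 to 12, 170 for time on the HFD, 141 for diet at ZT 0, 145 for diet at ZT 16 and 33 for the interaction. The changed genes were drawn only from genes with higher counts than the filter asks, and all genes had the same dispersion. Recovery for members with fewer counts or a wider spread, such as Sult2a6, Sult2a2 and Sult2a1, was not tested. Sequences were read from the GRCm38 genome with GENCODE M21, in which 62 of the 66 members had the same start and end as in the files, and from RefSeq promoters. Python 3.11.15, pandas 2.3.3, biopython 1.88 and matplotlib 3.10.9 were used.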

Additional observations from a re-analysis of the deposited data

How the results depend on the processing

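Of 74 alternatives to counts of members, other than those that left out 1 library, 62 were within 1.5 times of the values reported. DESeq2 called 1 member for diet averaged over ZT 0 to 12 (Gstk1; 0.783% of all genes), 1 for diet at ZT 8 (Ugt2b37; 0.316%), 7 for time over ZT 0 to 12 (12.5%) and 8 for time on the HFD (12.9%). A filter of 25 counts in total called 1 for the averaged diet (Sult4a1; 0.0996%), and leaving out ZT 12 called 1 for it (Ugt3a1; 0.540%) and 7 for time over ZT 0 to 12 (10.1%), Gsta3 not among them. Time over ZT 0 to 12 called 9 without the 3 ZT 12 libraries low in Dbp (16.5%), and time on the HFD called 5 with the curve of 24 h period (8.52%) and 5 without the ZT 12 library of the light-phase label (8.97%); the alternatives on Dbp, the light label and Xist were added after the data were seen. With at least 25 counts in every library 16 members were called at ZT 16 and 16 at ZT 20 (55.0% and 54.2% of all genes), where only 19 members remained to be tested.

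Leaving out each library in turn gave 0 to 2 members for the averaged diet (2 without AIN93G ZT 12 replicate 1), 0 for the interaction and for diet at ZT 0, 4, 8 and 12, 1 to 6 for time over ZT 0 to 12, 1 to 5 for time on the HFD and 37 to 39 at ZT 16 and at ZT 20. Over all genes the same fits called 2 to 160 for the averaged diet, 0 to 3 for the interaction, 0 to 4, 0, 0 to 55 and 0 to 31 for diet at ZT 0, 4, 8 and 12, 381 to 1239 and 170 to 1079 for time over ZT 0 to 12 and on the HFD, and 7656 to 8421 and 7433 to 8280 at ZT 16 and ZT 20. Time over ZT 0 to 12 fell to 1 member without AIN93G replicate 2 or 3 or HFD replicate 3 of ZT 0, or without AIN93G replicate 2 or HFD replicate 3 of ZT 8, and rose to 6 without AIN93G ZT 12 replicate 1. Time on the HFD fell to 1 without HFD ZT 8 replicate 2, where Sult1c2 had an adjusted p of 0.0665, and rose to 5 without HFD ZT 12 replicate 3. Without HFD replicates 2 and 3 of ZT 16, low in Xist, 2 members were called for time on the HFD (Gsta3 and Sult1c2; 183 of 12030 genes) and 36 at ZT 16 (6081 of 14094 genes), where 1 HFD library remains and is assumed to vary like the other groups.

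For 59 pairs of a member and a comparison (26 members, those called or, where none was, those with an unadjusted p under 0.05 or the 3 smallest p, and at ZT 16 and ZT 20 those with the largest differences), 1559 alternative fits were made, of which 1499 kept the direction and the side of the threshold, 55 lost a call, 5 gained a call and 0 changed sign; calls gained by other members are in the counts above. The 21 members at 10% or more of the liver median in Alb-low libraries were 21 with library-size scaling, 21 with 1000 CPM of Alb as the divide and 19 in AIN93G libraries of ZT 16 and ZT 20 alone, and the 7 above it were 8, 7 and 6. Any pair of groups shares at most 1 of the leading numbers in the sample titles and the diets share none, so no pairing of 2 groups could be made, but the number could enter as a replicate block with an estimated correlation in limma-voom, added after the data were seen. With the block 0 members were called for the averaged diet, 0 for the interaction, 3 for time over ZT 0 to 12 (5.06% of all genes) and 3 for time on the HFD (4.23%), and limma-voom without it called 0, 0, 3 (5.29%) and 3 (3.08%). The estimated correlation was -0.04 over ZT 0 to 12 and 0.26 on the HFD. Sult1c2 lost its call over ZT 0 to 12 with and without the block (adjusted p = 0.0548 and 0.0505). The deviations from the group means of 8 pairs of liver libraries with the same number correlated at -0.30 to 0.24 (median 0.03), against -0.37 to 0.42 (median 0.0027) for 181 other pairs within a diet.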

Other observations

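At ZT 24 only replicate 3 of each diet was liver-like, so no diet comparison was made at that time. They are among the 32 liver libraries described and entered 1 alternative fit of the averaged diet, which called 0 of 44 members and 9 of 11995 genes, and they are named here after their values were seen. Of 44 members at 1 CPM or more, the AIN93G library lay above the range of the other 12 AIN93G liver libraries for 14 and below it for 0, while of 13021 genes at 1 CPM or more 9.41% lay above and 9.25% below. Gsta3 was at 2033 CPM there (others 806 to 1915), Sult1d1 at 446 CPM (others 118 to 367), Ugt2b1 at 774 CPM (others 360 to 638), Sult1b1 at 42.8 CPM (others 17.8 to 33.9) and Sult2a6 at 9.82 CPM (others 0 to 7.08). The HFD library lay above the range of the other 18 HFD liver libraries for 3 members, Ugt2b1 (829 CPM), Ugt2b37 (28.9 CPM) and Ugt2b38 (20.0 CPM), and below it for Gstm1 (316 CPM), against 5.00% and 5.62% of all genes. Its Sult2a2 level was 0.0766 CPM, against 29.8 CPM in the AIN93G library.

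The 8 pseudogene rows with names of these families were not members. The processed pseudogene Gstp-ps had a median of 0.863 CPM in liver and 0.312 CPM in Alb-low libraries, and Gstm2-ps1 0.198 and 0.0178 CPM. No other pseudogene row had more than 3 counts in any library.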
